A study of Mus musculus with 4 samples.

Results

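The genes described here belong to the elastic fibre and its microfibrils: Fbn1, Fbn2, Mfap5, Mfap4, Eln, Emilin1, Fbln1, Fbln2, Fbln5 and Fbln7. They are 10 genes taken by symbol, of the 32285 genes in the tables, and had been selected on their UMI counts by library and cell class in these same libraries, so their levels are given as description with no test. All 10 had UMIs in the kept cells of every library. The libraries came from digits of wild-type FVB/NJ mice, 8 weeks old, 1 library from the unamputated middle of the digit and 3 from digits cut through the middle of phalanx P2 and collected 12, 17 or 28 days later (days post-amputation, dpa), a level at which digits heal by fibrosis. All animals were untreated wild type, the labels describe the sexes as pooled, and how many animals entered a library is not stated. Each group was a single library, so no difference had a replicate check, no p-value is given, and the 95% intervals cover counting error only. Living cells were sorted after enzymatic digestion and profiled with the 10x Chromium 3′ v3 assay, which tags each captured transcript with a unique molecular identifier (UMI). Where values of all 4 libraries are listed in time order, the order is unamputated, 12, 17 and 28 dpa.

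Elastic fibres consist of a core of cross-linked elastin laid on bundles of fibrillin microfibrils, and they give skin, tendon sheaths and vessel walls their recoil. Fibrillins form the microfibril, microfibril-associated glycoproteins bind along it, fibulins and emilins link it to elastin and to cells, and lysyl oxidases cross-link the elastin. Microfibrils also hold latent TGF-beta through the latent TGF-beta binding proteins. Fibroblasts, tendon cells, mural cells of vessels and endothelium are known to make these proteins.

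After filtering, 34947 cells were kept, in time order 10399, 6510, 7919 and 10119, with medians of 11600, 9543.5, 8501 and 6657 UMIs per cell. Library totals ran from 92313847 to 197140774 UMIs over 8813 to 16045 barcodes, and pairs of libraries shared 19 to 87 barcodes. The 12 dpa library held 3530 cells with transcripts of female cells and 0 of male cells, whereas 47.0% to 77.8% of cells in the other 3 libraries were male and 1 was female. Every value at 12 dpa therefore also compares the sexes, and day and sex cannot be told apart there. Of 28 clusters, 25 were named from marker genes as 14 classes. The fibroblast-like class was made of clusters 9 (led by C4b and Gdf10), 14 (Clec3b, Pi16 and Pcolce2) and 25 (Fgl2 and Itih5). It had 712, 257, 1819 and 2418 cells in time order, and all 20 of its markers were detected in every library. The tenocyte-like class was made mainly of cluster 8 (C1qtnf3, Tnn and Fmod; 649, 1743, 319 and 385 cells) and cluster 7 (Chad, Comp and Omd; 270, 58, 459 and 209 cells), and cluster 7 held as many cartilage markers as tendon markers among its 10 leading genes.

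Fibroblast-like, tenocyte-like and osteoblast-like cells together held 98.4% of Mfap5 UMIs, 99.2% of Mfap4 UMIs, 97.5% of Fbn2 UMIs and 96.2% of Fbln7 UMIs in the unamputated library. For the other genes the share there was smaller. It was 67.6% for Fbln5 in the unamputated library, where endothelial cells held 24.8%, and 77.2% for Emilin1 at 28 dpa. The share of these 3 classes was lowest for Eln, at 59.2% unamputated and 52.6% at 28 dpa, when pericyte-like and vascular smooth muscle-like cells held 39.4% of Eln UMIs. The tenocyte-like class supplied most Fbn2 at 12 dpa, 96.0% of its UMIs, in the library with the most cells of cluster 8. The fibroblast-like class supplied 90.0% of Mfap5 and 89.7% of Fbn1 UMIs at 28 dpa, when fibroblast-like cells made up 23.9% of all kept cells against 6.85% in the unamputated library. Levels below are therefore given within a class, in counts per 1000000 UMIs of that class (CPM). Fbn1 overlaps the predicted gene Gm9913 on the other strand. Since the assay counts transcript ends, CPM values are compared between samples and not between genes.

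**Figure D1:**
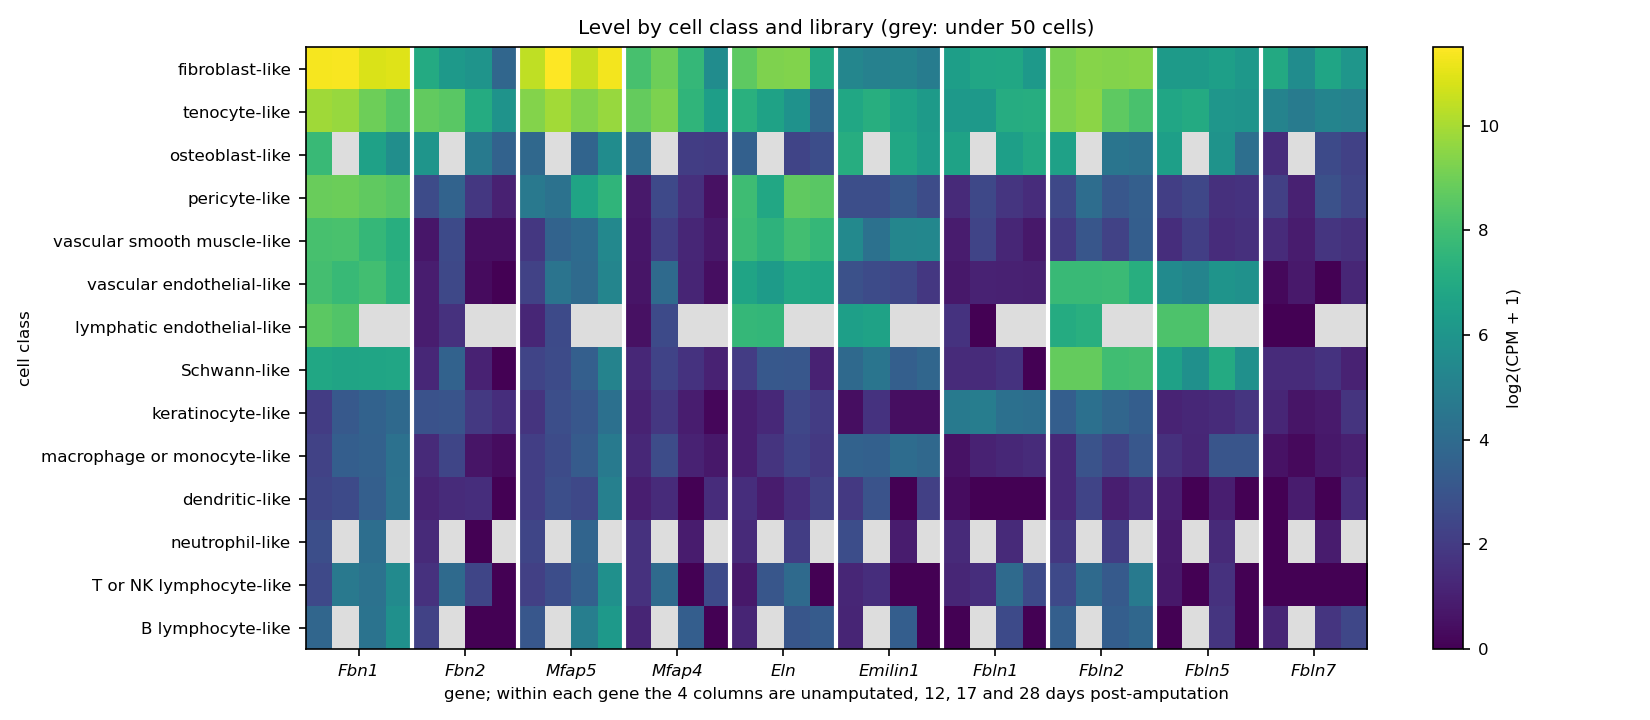
Colour gives log2(CPM + 1) of each gene (columns, with unamputated, 12, 17 and 28 dpa side by side within each gene) in each of 14 cell classes (rows). Mfap5 was high in the fibroblast-like and tenocyte-like rows, Fbn1 and Eln there and in the pericyte-like and vascular smooth muscle-like rows with a low tenocyte-like Eln at 28 dpa (13.9 CPM), Fbn2 was highest in the tenocyte-like row in every library, and Fbln5 was highest in lymphatic endothelial-like cells in both libraries with at least 50 of them.

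Against the unamputated library, few of the 10 genes differed by 2-fold in fibroblast-like cells at 12 and 17 dpa, and 3 were at least 2-fold lower at 28 dpa: Fbn2, Mfap4 and Eln. A gene was counted when its log2 ratio of (CPM + 1) was past 2-fold and it had at least 5 CPM in 1 of the 2 libraries. Since these counts come from values that had chosen the genes, nothing is read from them, and they stand beside the share of all genes that met the same rule. At 12 dpa, 1 of 10 was lower (Fbln7) and 1 higher (Mfap5), against 6.15% and 1.66% of 10810 genes. At 17 dpa, 1 was lower (Fbn2) and 0 higher, against 1.37% and 0.604% of 10766 genes. At 28 dpa, 3 were lower and 0 higher, against 6.51% and 2.31% of 10760 genes. The median log2 ratio of the 10 genes was 0.13, -0.00 and -0.42 at 12, 17 and 28 dpa, where all counted genes had medians of -0.18, -0.04 and -0.14. The comparisons share the unamputated library. At 12 dpa the class depended on how cells were named: it held 257 cells here, 922 with a looser cell filter, 899 at clustering resolution 2 and 745 when each cell was named alone. Median depth of fibroblast-like cells was 18119.5, 12251, 11733 and 8702.5 UMIs in time order. Summed keratinocyte markers were at 271, 421, 386 and 914 CPM in these cells in time order, cartilage and joint-lining markers at 74.6, 106, 99.4 and 323 CPM, and osteoblast markers at 239, 120, 117 and 92.1 CPM. Vascular smooth muscle markers were at 90.0, 179, 132 and 292 CPM, pericyte markers at 78.9, 98.4, 136 and 141 CPM, and lymphatic endothelial markers at 457, 122, 219 and 181 CPM. Tendon markers were at 552, 286, 450 and 459 CPM. Markers of T or NK lymphocytes summed to 5.12 CPM or less in every library. The part of these other transcripts in the values below was not tested.

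**Figure D2:**
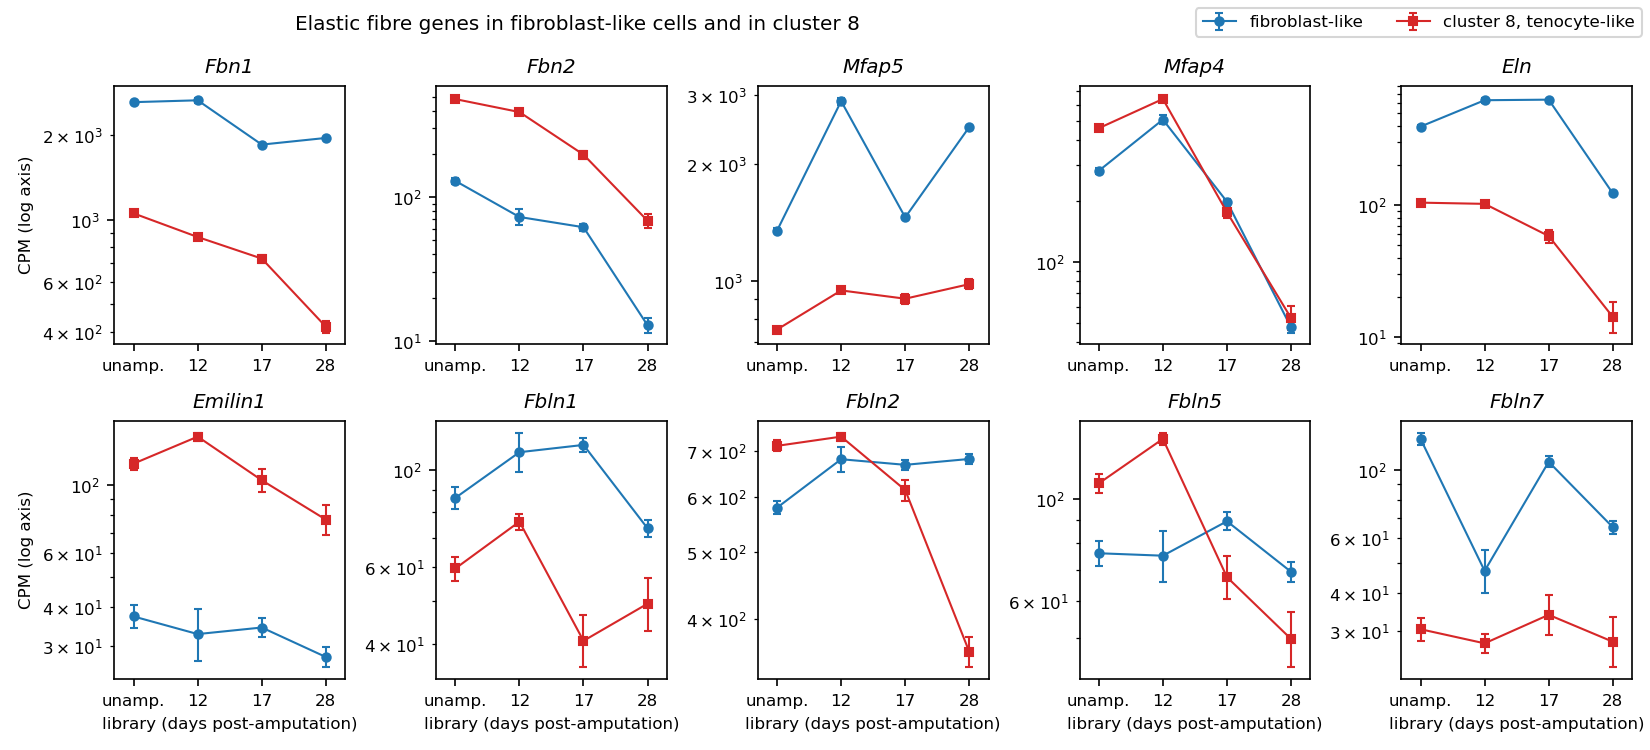
Each panel shows the CPM of 1 gene on a log axis by library, in fibroblast-like cells (blue circles) and in cluster 8 (red squares), with 95% Poisson intervals and 1 library per point. Genes with their lowest value at 28 dpa in both populations included Fbn2, Mfap4, Eln and Fbln5, and Mfap5 was not among them.

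The 2 fibrillins differed from each other. Fbn1, the main fibrillin of adult microfibrils, was at 2621 CPM in unamputated fibroblast-like cells (2593 to 2648), 2661 at 12 dpa (2605 to 2717), 1851 at 17 dpa (1833 to 1869) and 1955 at 28 dpa (1937 to 1973). The unamputated and 12 dpa intervals overlapped, and both later libraries lay lower, with log2 ratios of -0.50 (-0.52 to -0.48) and -0.42 (-0.44 to -0.40). The 28 dpa ratio stayed below 0 in 14 of 15 alternatives (-0.73 to 0.08). Fbn2, the fibrillin most used in development, was at 129.6 CPM unamputated (124 to 136), 72.8 at 12 dpa (63.8 to 82.6), 61.8 at 17 dpa (58.5 to 65.1) and 12.8 at 28 dpa (11.4 to 14.4). All 3 amputated libraries lay below the unamputated one, and the 28 dpa level was 9.44-fold lower than unamputated (log2 ratio -3.24, -3.41 to -3.07). The class values at 12 and 17 dpa lay close together, but in clusters 14 and 9, given below, 17 dpa lay lower. The 12 dpa ratio, -0.82 here, ranged from -1.19 to 0.84 with the choice of cells and other settings, so that its sign was not settled. The 17 dpa ratio, -1.06 here, ranged from -2.37 to -0.74, and the 28 dpa ratio from -4.46 to -2.03. Between 17 and 28 dpa, 2 libraries with 0 female cells, the log2 ratio was -2.18 (-2.35 to -2.01). Fbn1 and Fbn2 lie on chromosome 2 (125300594 to 125507993, minus strand) and chromosome 18 (58008623 to 58210487, minus strand) in GENCODE M21 on GRCm38, the build named mm10 in the submitters' processing notes.

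The lower Fbn2 at 28 dpa was also seen in the share of cells with a UMI. It was 53.1%, 40.1%, 22.3% and 5.71% in time order. After every cell was thinned to 2000 UMIs, which left out 7, 6, 33 and 55 shallower cells, it was 19.0%, 12.4%, 7.67% and 2.16%. The order of the libraries was thus the same at equal depth. Among T or NK lymphocyte-like cells, which should lack Fbn2 and had medians of 2458.5 to 4609 UMIs, the thinned share was 0%, 2.92%, 2.02% and 0%. At 28 dpa only 56 of those lymphocytes were deep enough, which allows a share of up to 6.38% and is too few for a comparison. Macrophage- or monocyte-like cells of that library, with a median of 7145.5 UMIs, had a thinned share of 0.114% (0.0138% to 0.412%) and a level of 0.295 CPM, below the 2.16% (1.61% to 2.83%) and 12.8 CPM of fibroblast-like cells.

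Fbn2 was lower at 28 dpa in every mesenchymal cluster, to different degrees. Cluster 14 was at 115.9, 50.3, 27.7 and 4.33 CPM in time order, with a log2 ratio of -4.46 (-4.74 to -4.17) at 28 dpa. Cluster 9 was at 118.6, 121.8, 26.2 and 5.29 CPM, with 49 cells at 12 dpa. In cluster 25 the level was 226.6, 191.2, 220.5 and 101.1 CPM, with 30 cells at 12 dpa. Of the 3 fibroblast-like clusters it had the highest Fbn2 in the unamputated, 17 and 28 dpa libraries, and at 12 dpa clusters 25 and 9 each held under 50 cells. It held 29.5% of all Fbn2 UMIs of the 28 dpa library, in 304 cells. Cluster 8 was at 480.0, 390.2, 197.4 and 68.4 CPM (log2 ratio at 28 dpa -2.79, -2.97 to -2.62), cluster 7 at 243.4, 226.3, 61.0 and 32.9 CPM, and osteoblast-like cells at 63.1 CPM unamputated, 103 at 12 dpa (72.2 to 143), 24.9 at 17 dpa and 11.2 at 28 dpa. The 12 dpa library held only 18 osteoblast-like cells. In clusters 8 and 7 the unamputated level was the highest, in osteoblast-like cells the 12 dpa level was, and in all 3 the 28 dpa level was the lowest. Over whole libraries Fbn2 was instead highest at 12 dpa, at 170.7 CPM against 84.0 unamputated, 37.7 at 17 dpa and 9.05 at 28 dpa, and the 12 dpa library was the one with the most cluster 8 cells.

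Among classes of at least 50 cells, Fbn1 had its highest level in fibroblast-like cells in every library, followed by tenocyte-like and pericyte-like cells, whose intervals overlapped at 28 dpa (356 and 367 CPM). Cluster 14 held the highest Fbn1 of the mesenchymal clusters, at 3853, 3094, 2570 and 2321 CPM in time order. Cluster 8 was at 1054, 869, 728 and 417 CPM, and its 28 dpa ratio was -1.34 (-1.41 to -1.26). Osteoblast-like cells were at 224 CPM unamputated, 496 at 12 dpa (425 to 575, from 18 cells), 95.6 at 17 dpa and 49.9 at 28 dpa. Fbn1 in lymphocyte-like cells (B, T and NK together, with 0 B cells at 12 dpa) was 7.66, 24.1, 19.3 and 49.2 CPM. The osteoblast-like value at 28 dpa was close to the last, but those lymphocytes were shallower (median 2224 against 6679 UMIs). Macrophage- or monocyte-like cells at 28 dpa, with a median of 7145.5 UMIs, were at 18.7 CPM (16.5 to 21.2). That was below the osteoblast-like 49.9 CPM (41.8 to 59.1).

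The 2 microfibril-associated proteins went in opposite directions at 28 dpa. Mfap5, also called MAGP-2, binds fibrillin and was at 1349 CPM in unamputated fibroblast-like cells (1330 to 1369), 2897 at 12 dpa (2839 to 2956), 1459 at 17 dpa (1443 to 1475) and 2487 at 28 dpa (2467 to 2507). The 12 and 28 dpa libraries were high and the other 2 low, with no overlap of intervals. The log2 ratios were 1.10 (1.07 to 1.14), 0.11 (0.09 to 0.14) and 0.88 (0.86 to 0.91). The cluster mixture differed between libraries: cluster 14, the richest in Mfap5, made up in time order 298 of 712, 178 of 257, 785 of 1819 and 1542 of 2418 fibroblast-like cells. Within cluster 14 alone Mfap5 was at 2105, 3387, 2098 and 3023 CPM, and the 12 and 28 dpa ratios were 0.69 (0.65 to 0.72) and 0.52 (0.50 to 0.55), both under 2-fold. Over the alternatives the 12 dpa ratio of the class ranged from 0.12 to 1.29. Cluster 9 was at 608 CPM unamputated and 855 at 28 dpa, and cluster 25 at 473 and 957 CPM. Mfap5 lies on chromosome 6 (122505845 to 122529290). Cluster 8 was at 752, 948, 903 and 984 CPM, the only gene of the 10 above its unamputated level there at 28 dpa.

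Mfap4, a fibrinogen-related protein that binds fibrillin and elastin, was at 282 CPM unamputated (273 to 291), 506 at 12 dpa (482 to 531), 199 at 17 dpa (193 to 204) and 47.5 at 28 dpa (44.7 to 50.3) in fibroblast-like cells. The order was 12 dpa, unamputated, 17 dpa, 28 dpa, with separate intervals, and 28 dpa was 5.85-fold below unamputated (log2 ratio -2.55, -2.64 to -2.45). Against 17 dpa the log2 ratio at 28 dpa was -2.04 (-2.14 to -1.95). Cluster 8 gave nearly the same course, at 458, 639, 176 and 52.8 CPM. Cluster 14 was at 326, 600, 204 and 35.1 CPM, a ratio of -3.18 (-3.30 to -3.05) at 28 dpa, whereas cluster 9 was at 305 CPM unamputated, 308 at 17 dpa and 127 at 28 dpa, and cluster 7 at 405, 408, 189 and 193 CPM. Clusters 9 and 7 thus had more Mfap4 at 28 dpa than clusters 14 and 8. Cluster 25 had little, 15.4 CPM unamputated and 1.44 at 28 dpa. After thinning, Mfap4 had a UMI in a share of fibroblast-like cells of 25.7%, 34.3%, 16.9% and 5.25%, and without thinning 53.5%, 63.4%, 33.8% and 14.2%. In T or NK lymphocyte-like cells the thinned share was 0%, 2.92%, 0% and 1.79%. Mfap4 (chromosome 11, 61485431 to 61488900) overlaps Mapk7 on the other strand, and whether the counting used strand is not given in the sources used here.

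Eln, elastin itself, had a higher level in fibroblast-like cells at 17 dpa than unamputated and its lowest level at 28 dpa. It was at 394 CPM unamputated (384 to 405), 625 at 12 dpa (598 to 652), 631 at 17 dpa (620 to 641) and 123 at 28 dpa (119 to 127). The 12 and 17 dpa intervals overlapped. The log2 ratios to unamputated were 0.66 (0.59 to 0.74), 0.68 (0.63 to 0.72) and -1.67 (-1.74 to -1.61), and that of 28 against 17 dpa was -2.35 (-2.41 to -2.29). The 12 dpa ratio changed sign with the choice of cells, down to -0.73 with tenocyte-like cells pooled in, whereas the 17 dpa ratio stayed above 0 in 15 of 15 alternatives (0.40 to 1.03). The share of cells with an Eln UMI was 45.6%, 47.1%, 38.6% and 25.8%, or 22.3%, 26.3%, 20.4% and 12.1% after thinning, against a thinned 0%, 0.730%, 3.03% and 0% in T or NK lymphocyte-like cells. Between unamputated and 17 dpa the share of cells was lower while the CPM was higher, so no order of these 2 libraries is read from the shares.

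Within the fibroblast-like class, cluster 14 was at 337, 718, 688 and 89.2 CPM, with a 17 dpa ratio of 1.03 (0.96 to 1.10) and a 28 dpa ratio of -1.90 (-1.996 to -1.81). Cluster 9 was at 589 CPM unamputated, 906 at 17 dpa and 336 at 28 dpa, a 28 dpa ratio of -0.81 (-0.90 to -0.72). Cluster 25 had 5.12 CPM unamputated and 8.67 CPM at 28 dpa, from 8 and 18 UMIs. Eln was thus low in cluster 25, the cluster highest in Fbn2 among fibroblast-like cells. In the tenocyte-like class, cluster 7 was at 349, 183, 60.0 and 13.5 CPM, the last from 18 UMIs, and cluster 8 at 104, 102, 58.3 and 14.2 CPM. Both had their lowest Eln at 28 dpa and neither had the higher 17 dpa value of fibroblast-like cells.

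Mural cells gave another course for Eln. Pericyte-like cells were at 246 CPM unamputated (237 to 255), 117 at 12 dpa (107 to 127), 410 at 17 dpa (392 to 428) and 371 at 28 dpa (353 to 389). The log2 ratios were -1.07 (-1.20 to -0.94), 0.73 (0.65 to 0.82) and 0.59 (0.50 to 0.68). Vascular smooth muscle-like cells, whose elastin forms the laminae of vessel walls, were at 230, 171, 262 and 204 CPM, all 3 ratios being within 1.5-fold. Vascular endothelial-like cells were at 103, 77.6, 118 and 107 CPM. At 28 dpa vascular smooth muscle-like cells lay slightly below unamputated (log2 ratio -0.17, -0.31 to -0.03), and the vascular endothelial-like ratio was 0.06 (-0.12 to 0.23). Lymphatic endothelial-like cells were at 204, 196, 257 and 99.6 CPM, the last 2 from 34 and 38 cells. No mural or vascular endothelial-like value was thus 2-fold lower at 28 dpa, unlike the class values of fibroblast-like and tenocyte-like cells. The lymphatic endothelial-like value was also lower at 28 dpa (99.6 against 204 CPM), from 38 cells, and fibroblast-like cluster 9 was under 2-fold lower. The difference between classes was not tested. At 28 dpa the order of classes was pericyte-like, vascular smooth muscle-like, fibroblast-like, vascular endothelial-like, the last 2 with overlapping intervals. Eln (chromosome 5, 134702593 to 134747323, minus strand) overlaps the predicted gene Gm30003 on the other strand.

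**Figure D3:**
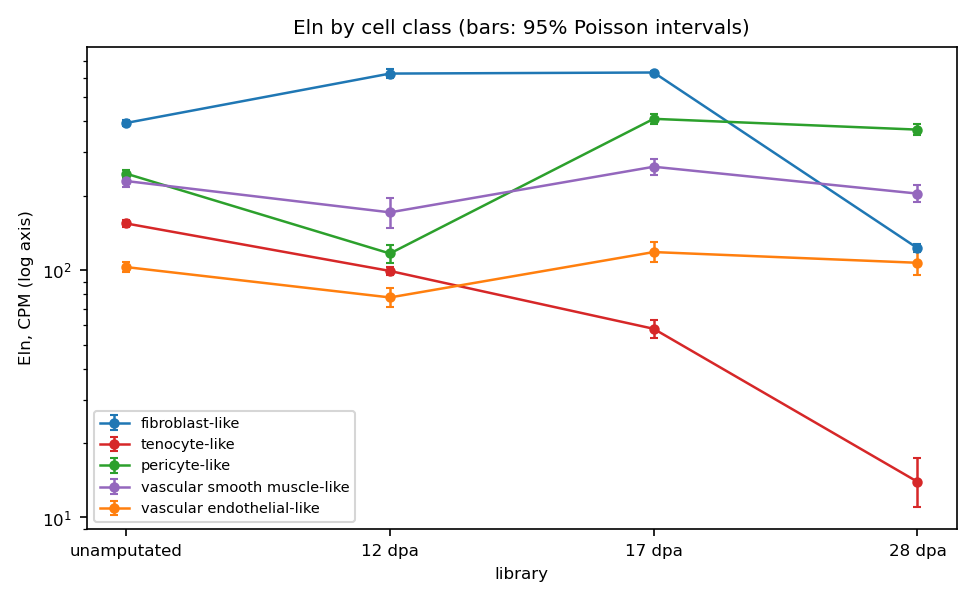
Eln level in CPM on a log axis by library in 5 cell classes, with 95% Poisson intervals and 1 library per point. At 28 dpa the fibroblast-like (123 CPM) and tenocyte-like (13.9 CPM) points were at their lowest, while the pericyte-like point (371 CPM) lay above its unamputated value.

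Emilin1, a glycoprotein at the border of elastin and microfibrils that also restrains TGF-beta maturation, was low in fibroblast-like cells, at 37.3 CPM unamputated (34.2 to 40.7), 32.7 at 12 dpa (26.8 to 39.5), 34.4 at 17 dpa (32.0 to 36.9) and 27.6 at 28 dpa (25.5 to 29.7). Only the 28 dpa interval lay apart from the unamputated one, at a log2 ratio of -0.42 (-0.59 to -0.26). Over the alternatives the 28 dpa ratio ranged from -1.21 to -0.15, and the 12 dpa ratio from -0.32 to 0.92. Osteoblast-like cells were at 142 CPM unamputated, 206 at 12 dpa (161 to 260, from 18 cells), 113 at 17 dpa and 80.1 at 28 dpa, and tenocyte-like cells at 115, 145, 99.5 and 75.2 CPM. The osteoblast-like and tenocyte-like intervals overlapped at 17 and 28 dpa. Lymphatic endothelial-like cells were at 88.6 and 98.4 CPM in the unamputated and 12 dpa libraries. Emilin1 lies on chromosome 5 (30913402 to 30921277).

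The 4 fibulins, secreted glycoproteins that bridge microfibrils, elastin and basement membranes, had different courses. Fbln2 was in fibroblast-like cells at 579 CPM unamputated (567 to 592), 681 at 12 dpa (653 to 710), 668 at 17 dpa (658 to 679) and 681 at 28 dpa (671 to 692). The unamputated library was the lowest, the intervals of the 3 amputated ones overlapped, and no log2 ratio exceeded 0.23. In cluster 8 Fbln2 was instead at 712, 734, 614 and 359 CPM, in cluster 7 at 283, 372, 153 and 101 CPM, and in osteoblast-like cells at 93.3, 244, 21.2 and 19.0 CPM, with 18 cells at 12 dpa. In cluster 8 the 28 dpa ratio was -0.99 (-1.07 to -0.91). Fbln2 in lymphocyte-like cells, B, T and NK together, was at 6.76 CPM unamputated and 18.7 at 28 dpa. The osteoblast-like value at 28 dpa was level with these shallower cells, and no ratio is given. Macrophage- or monocyte-like cells at 28 dpa were at 7.82 CPM, below osteoblast-like cells, but their thinned share was 1.60% against 1.14%. Pericyte-like cells were at 4.61 CPM unamputated and 10.2 at 28 dpa, and keratinocyte-like cells at 9.88 and 9.68 CPM, also near these levels. Schwann-like cells ranked next, at 438, 444, 247 and 269 CPM, and vascular endothelial-like cells were at 221, 224, 231 and 148 CPM.

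Fbln5, which brings elastin onto microfibrils and is needed for elastic fibre assembly, was at 76.1 CPM unamputated (71.6 to 80.9), 75.2 at 12 dpa (66.1 to 85.2), 89.3 at 17 dpa (85.4 to 93.3) and 69.4 at 28 dpa (66.1 to 72.8) in fibroblast-like cells. No log2 ratio to unamputated exceeded 0.23 in size, and the sign of the 17 dpa ratio depended on the setting (-0.25 to 0.37). Lymphatic endothelial-like cells had the highest Fbln5, at 314 CPM unamputated and 307 at 12 dpa, with 161 and 157 cells. Schwann-like cells were at 94.2, 54.3, 131 and 53.5 CPM, and cluster 8 at 108, 135, 67.6 and 49.7 CPM. Cluster 9 was higher at 28 dpa than unamputated (143 against 92.3 CPM) and cluster 25 lower (31.3 against 90.2 CPM), with cluster 14 between them (57.5 against 60.8 CPM). The even level of the whole class was therefore a sum of unlike clusters.

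Across 50 sums of at least 50 cells (class by library), Fbln2 and Fbln5 had a Pearson r of 0.87 on log2(CPM + 1), and the same 2 genes, Npr2 and Prkd1, were the most similar to each of them among 12173 genes. These sums share libraries and depth, and no p is given. The pair with the highest r, Fbln7 with Mfap5 (0.91), is not shown, since no window for Mfap5 was matched. Fbln2 and Fbln5 came next, and because their class patterns were alike, the RefSeq promoter windows of this pair (GRCm38.p6, 250 bases before to 50 after the start site, 5′ to 3′) are shown, with matches to GGGCGG on either strand in capitals. Fbln2 lies at chr6:91212514-91212813 on the plus strand and Fbln5 at chr12:101819070-101819369 on the minus strand.
Fbln2: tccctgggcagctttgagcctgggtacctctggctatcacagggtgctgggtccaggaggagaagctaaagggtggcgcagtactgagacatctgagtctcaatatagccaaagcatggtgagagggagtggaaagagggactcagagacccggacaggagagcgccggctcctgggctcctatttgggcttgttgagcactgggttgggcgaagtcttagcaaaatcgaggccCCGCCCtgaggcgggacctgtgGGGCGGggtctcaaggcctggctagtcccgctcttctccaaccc
Fbln5: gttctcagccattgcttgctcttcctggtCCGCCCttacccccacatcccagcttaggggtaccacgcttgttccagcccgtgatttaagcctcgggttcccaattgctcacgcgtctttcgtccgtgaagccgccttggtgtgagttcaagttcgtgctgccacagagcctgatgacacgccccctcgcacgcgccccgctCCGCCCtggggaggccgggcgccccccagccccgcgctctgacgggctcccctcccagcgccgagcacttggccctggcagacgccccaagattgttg

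Each window held 2 matches, starting 16 bases before and at base 6 after the start in Fbln2, and 221 and 48 bases before it in Fbln5. Of 32851 promoter windows, 35.7% held a match, so this is a description and not a shared feature of the pair. A second Fbln5 start site at 101818435 to 101818734 held 0 matches. Neither window of the pair held TATAAA (13.6% of all windows), TGANTCA (7.81%) or CAGACA (21.04%), and CANNTG, present in 72.3% of windows, was found 1 and 2 times.

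Fbln1, the fibulin of basement membranes and elastic fibre cores, was at 86.3 CPM unamputated (81.4 to 91.3), 110 at 12 dpa (98.7 to 122), 114 at 17 dpa (110 to 119) and 73.5 at 28 dpa (70.1 to 76.98) in fibroblast-like cells. The 12 and 17 dpa libraries were high with overlapping intervals. The 28 dpa ratio, -0.23 here, stayed below 0 in 12 of 15 alternatives (-0.50 to 0.28). Cluster 7 differed: it was at 113, 90.3, 253 and 427 CPM in time order, with ratios of 1.16 (1.02 to 1.31) and 1.91 (1.74 to 2.08) at 17 and 28 dpa. Cluster 8 had 59.5, 76.1, 40.6 and 49.4 CPM. Within the tenocyte-like class the 2 clusters thus differed, and the higher class value at 17 and 28 dpa (140 and 141 CPM against 70.3 unamputated) was seen in cluster 7 and not in cluster 8. Cluster 9 was at 119 CPM unamputated, 218 at 17 dpa and 200 at 28 dpa. Fbln1 lies on chromosome 15 (85205949 to 85286535).

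Fbln7 is a small fibulin that binds cells. Fibroblast-like cells held 66.1%, 14.8%, 84.2% and 84.9% of its UMIs in time order, and at 12 dpa tenocyte-like cells held 81.6%. In fibroblast-like cells it was at 126 CPM unamputated (120 to 132), 47.1 at 12 dpa (39.9 to 55.1), 106 at 17 dpa (102 to 111) and 65.2 at 28 dpa (62.1 to 68.6). The 12 dpa library was the lowest, at a log2 ratio of -1.40 (-1.65 to -1.17), followed by 28 dpa at -0.94 (-1.04 to -0.84). The sign of the 17 dpa ratio, -0.25 here, depended on the setting (-0.39 to 0.36). Within cluster 14 alone the level was 73.0, 49.1, 94.0 and 50.01 CPM and the 12 dpa ratio was -0.56 (-0.85 to -0.28). Cluster 9, the richest, was at 234, 60.9, 189 and 167 CPM in time order, with 49 cells at 12 dpa. Cluster 9 made up 49 of 257 fibroblast-like cells at 12 dpa and 305 of 712 unamputated. Both the mixture and the level within clusters 9 and 14 thus differed at 12 dpa, and their parts in the class value were not tested. Fbln7 lies on chromosome 2 (128862981 to 128897034).

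Cluster 8 held at least 319 cells in every library, but its make-up was not shown to be the same in each. At resolution 2, 2 clusters shared leading genes with it, 1 led by C1qtnf3 and Col11a1 and named tenocyte-like (384, 1112, 165 and 254 cells in time order) and 1 led by Col7a1 and Kif26b and named fibroblast-like (184, 403, 66 and 10 cells). With the stricter cell filter, the cluster led by C1qtnf3 had 435, 1199, 176 and 75 cells and stayed unnamed, and a tenocyte-like cluster led by Inhba and Crabp2, with Hapln1 and Acan, had 45, 91, 100 and 247. The part of this mixture in the cluster 8 values was not tested. In cluster 8, 0 of 10 genes were 2-fold lower and 0 higher at 12 dpa, against 0.647% and 0.29% of 10360 genes. At 17 dpa, 2 were lower (Fbn2 and Mfap4) and 0 higher, against 1.85% and 1.55% of 10485 genes. At 28 dpa, 5 were lower (Fbn1, Fbn2, Mfap4, Eln and Fbln5) and 0 higher, against 8.13% and 4.72% of 10556 genes. The medians of the 10 genes were 0.17, -0.54 and -1.05, against -0.11, -0.06 and -0.10 for all genes. Eln and Mfap4 in cluster 8 had ratios of -2.79 (-3.16 to -2.44) and -3.09 (-3.29 to -2.90) at 28 dpa, and Fbln5 one of -1.10 (-1.31 to -0.90). Fbln1 and Fbln7 there had ratios nearer 0, of -0.26 (-0.48 to -0.05) and -0.13 (-0.42 to 0.16). As in fibroblast-like cells, nothing is read from these counts.

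**Figure D4:**
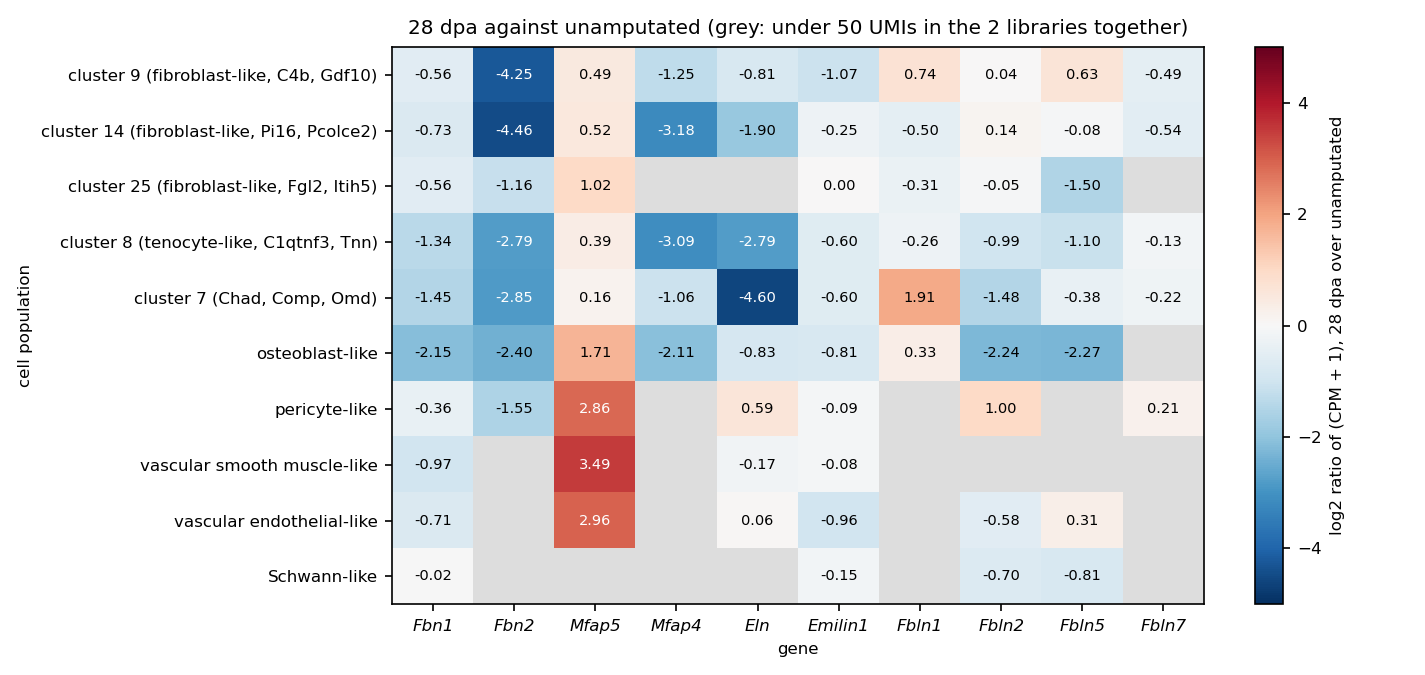
Each cell gives the log2 ratio of (CPM + 1) at 28 dpa over unamputated for 1 gene (columns) in 1 cluster or class (rows), with grey where the 2 libraries held under 50 UMIs together. The Fbn2 column was negative in every row shown, the Eln column ran from -4.60 in cluster 7 to 0.59 in pericyte-like cells, and Fbln1 was 1.91 in cluster 7.

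Mfap5 in pericyte-like cells is given with other classes beside it. In pericyte-like cells it was at 24.4, 18.9, 104 and 184 CPM, and in lymphocyte-like cells (B, T and NK together) at 4.95, 5.55, 19.3 and 63.3 CPM. Mfap5 was thus higher at 28 dpa in both, but those lymphocytes were shallower (median 2224 against 4033 UMIs). Vascular smooth muscle-like and vascular endothelial-like cells at 28 dpa, with medians of 4213 and 4312.5 UMIs, were at 39.98 and 36.3 CPM. Their thinned shares were 9.02% and 8.32%, against 22.3% (19.6% to 25.1%) in pericyte-like cells. The pericyte-like level at 28 dpa lay above these classes of similar depth. The part of free RNA in the pericyte-like value was not tested.

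Other genes came from a list of 54 that held further microfibril and elastic fibre genes, cross-linking enzymes and ADAMTS-like proteins, and also general matrix proteins, TGF-beta ligands and receptors, integrins and proteases. Of these, 45 passed 5 CPM in fibroblast-like cells at 28 dpa. Of those, 7 were at least 2-fold lower and 3 higher than unamputated, against 6.51% and 2.31% of all genes, with a median log2 ratio of -0.09 against -0.14 for all genes. At 12 dpa 44 passed, with 3 lower and 0 higher, against 6.15% and 1.66% of all genes, so the lower count was about the background share. At 17 dpa 45 passed, with 0 lower and 1 higher, against 1.37% and 0.604%. Genes with at least 50 CPM that were lower at 28 dpa were Mfap2, the microfibril glycoprotein MAGP-1 (221 to 71.6 CPM, -1.61), Lox, a lysyl oxidase that cross-links elastin (315 to 154 CPM, -1.03), and the ADAMTS-like genes Adamtsl1 (-1.51) and Adamtsl3 (-1.03). Ltbp2, a fibrillin-binding member of the latent TGF-beta binding protein family, was higher (31.9 to 116 CPM, 1.83), as was fibronectin, Fn1 (3224 to 6851 CPM, 1.09). The other lysyl oxidases were under 2-fold and are given because Lox was past it. Loxl2 was higher at 28 dpa (375 to 696 CPM, 0.89, 0.84 to 0.93), Loxl1, the one most tied to elastic fibres, was at 431 and 457 CPM, Loxl3 at 26.0 and 27.3 CPM, and Loxl4 under 5 CPM in both libraries.

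**Figure D5:**
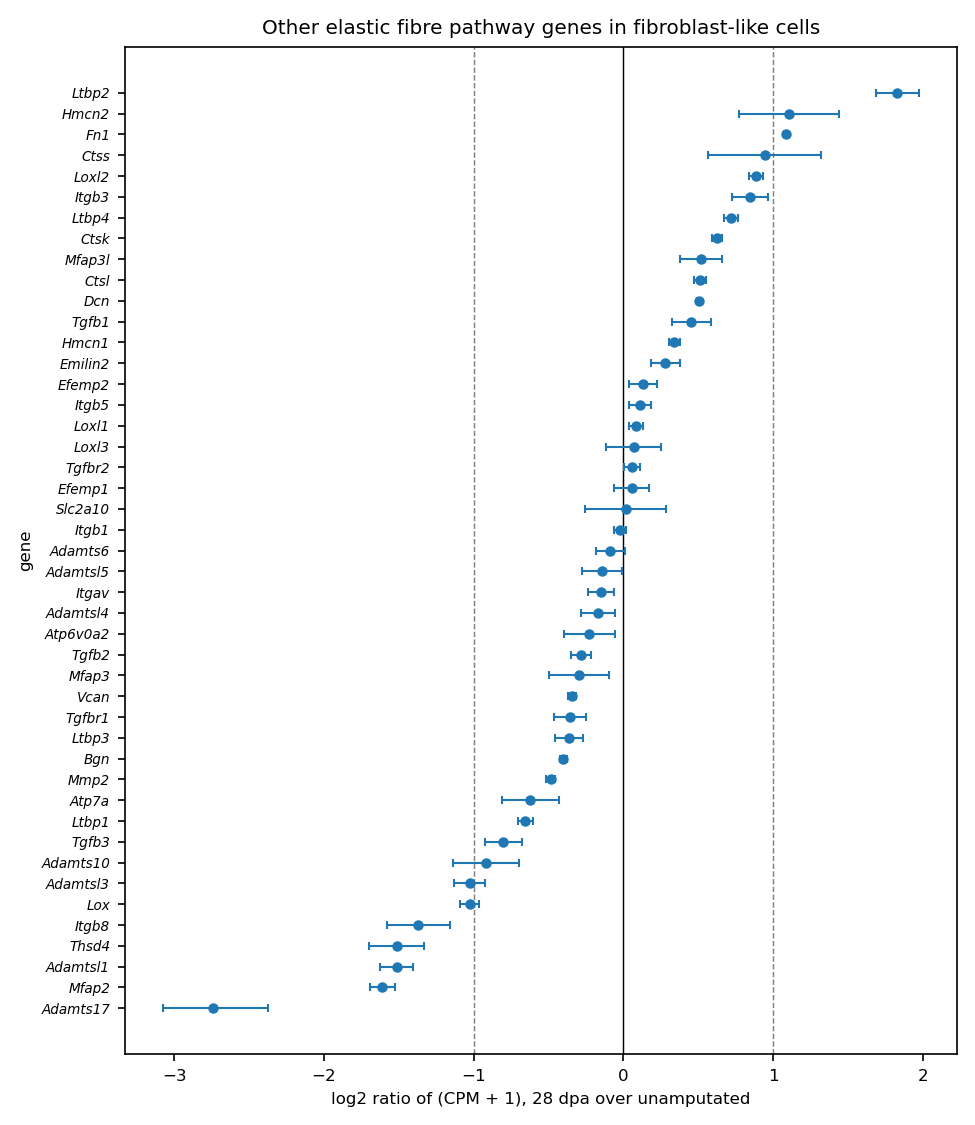
Log2 ratio of (CPM + 1) at 28 dpa over unamputated in fibroblast-like cells (x axis) for the 45 listed pathway genes with at least 5 CPM (y axis), with 95% intervals for counting error and dashed lines at 2-fold. Mfap2 and Lox lie left of the lower dashed line and Ltbp2 and Fn1 right of the upper one.

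Over the same 50 sums, the genes whose pattern was most like each of the 10 were Fstl1 for Fbn1 (r 0.98), Gm26771 and Sfrp2 for Fbn2 (both 0.90), Meox2 for Eln (0.92), AW551984 for Mfap4 (0.92), Clec3b for Mfap5 (0.93), Dpt for Fbln7 (0.91), Slc1a3 for Fbln1 (0.92) and Timp2 for Emilin1 (0.82). Among the 10 themselves the closest pairs were Fbln7 with Mfap5 (0.91), Fbln2 with Fbln5 (0.87), Fbn2 with Mfap4 (0.87) and Fbn1 with Eln (0.87). Eln and Fbln1 had the lowest r, 0.22.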

How the data were processed

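The files deposited by the authors held 1 table of UMI counts, as whole numbers, for each of the 4 libraries. Per the file headers, Cell Ranger 7.1.0 wrote them, and per the submitters' processing notes the build was mm10. Whether counting used strand, and the cell-calling settings, are not given in the sources used here. Cells needed at least 500 genes, 1000 UMIs and a mitochondrial share of at most 10%. Doublets were removed by rank of Scrublet score, at 0.8% per 1000 barcodes (scanpy 1.11.5). All libraries were clustered together (2000 variable genes, 30 components, 15 neighbours, Leiden resolution 1), with the 10 genes, sex-linked and mitochondrial genes left out. A cluster was named from its markers where at least 3 were detected in 25% of its cells and its 10 leading genes did not go against the name. This scoring rule was written after the files were seen. The genes and marker lists were chosen with earlier results of these data known. CPM, Poisson and Clopper-Pearson intervals, and log2 ratios with a pseudocount of 1 CPM were computed from the counts, and the interval of a ratio conditions on the 2 counts together. The named genes were all 10, the pathway genes past 2-fold at 28 dpa with at least 50 CPM and the other lysyl oxidases. Of the 3 genes most similar to each by r, 1 or 2 are named. A ratio computation was tested on simulated counts. Coordinates are GENCODE M21 and promoters RefSeq.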

Additional observations from a re-analysis of the deposited data

Results flagged for a closer look

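Eln was singled out because cell classes differed in opposite directions from the unamputated library, each past 1.5-fold. At 12 dpa the log2 ratio was 0.66 in fibroblast-like cells, a sign that changed with the choice of cells (-0.73 to 1.09), and -1.07 in pericyte-like cells. At 17 dpa it was 0.73 in pericyte-like cells and -1.40 in tenocyte-like cells, most of the latter from cluster 7 at 17 dpa and from cluster 8 in the unamputated library. At 28 dpa it was 0.59 in pericyte-like cells and -3.38 in tenocyte-like cells. With 1 library per group these differences were not tested.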

How the results depend on the processing

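No paired analysis was possible because each group had 1 library. Of the 2-fold counts in fibroblast-like cells, the 3 lower at 28 dpa became 4 with tenocyte-like cells pooled in (Emilin1, -1.21) or a 1.5-fold call (Fbln7, -0.94) and stayed 3 otherwise, with Fbn2 ratios from -4.46 to -2.03, Mfap4 from -3.18 to -1.96 and Eln from -1.97 to -1.10. The count lower at 12 dpa, 1, became 2 with lymphocyte-like CPM subtracted or a 1.5-fold call. The count higher at 12 dpa, 1, became 0 with a looser cell filter, resolution 2, each cell named alone, tenocyte-like cells pooled in or equal weight for clusters of at least 20 cells. It became 2 with a stricter filter, no doublets removed or the median of all genes set to 0, and 3 at 1.5-fold. Mfap5, the gene higher at 12 dpa, was past 2-fold in 8 of 15 alternatives. At resolution 0.5 the count stayed 1 but was Mfap4 (1.22, with Mfap5 at 0.91). In cluster 14 alone the gene higher was Eln (1.09, with Mfap5 at 0.69) and the gene lower Fbn2 (-1.19, with Fbln7 at -0.56). The count lower at 17 dpa, 1, became 0 with the stricter filter, a pseudocount of 10 CPM or the equal weight of 20-cell clusters, and the count higher, 0, became 1 with equal weight of 50-cell clusters (cluster 14 alone) or a 1.5-fold call. The count higher at 28 dpa, 0, became 1 with the looser filter, resolution 2, each cell named alone, pooling, the median set to 0 or a 1.5-fold call. The cause was not tested. The weight with 20-cell clusters was chosen after seeing the data. At 12 dpa the signs of Fbn2 (-1.19 to 0.84), Eln (-0.73 to 1.09), Fbn1 (-0.69 to 0.21), Fbln5 (-0.41 to 0.45) and Emilin1 (-0.32 to 0.92) depended on the setting, with Fbln1 reaching -0.00. So did those at 17 dpa of Fbln5 (-0.25 to 0.37), Fbln7 (-0.39 to 0.36), Emilin1 (-0.64 to 0.19), Fbln2 (-0.05 to 0.27) and Mfap5 (-0.00 to 0.39), and at 28 dpa of Fbln1 (-0.50 to 0.28) and Fbn1 (-0.73 to 0.08). Of 450 single-gene alternatives, 198 stayed within the counting error and 252 moved further, some of them with the changes of sign given above. Reversals were counted only for main ratios past 2-fold, and of those none changed sign in any alternative. Thinning to 2000 UMIs lowered 40 of 40 shares of fibroblast-like cells with a UMI past their interval. Drawing cells down to fewer UMIs lowers such shares by design, so this is no check on differences between libraries. Each group was 1 library, free RNA was not removed, and shallow classes (28 dpa lymphocyte-like cells, median 2224 UMIs) limit the background.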

Other observations

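Fbln5 and Emilin1 in lymphatic endothelial-like cells of the later libraries rest on 34 and 38 cells, and are given as values: Fbln5 was at 226 CPM at 17 dpa and 55.3 CPM at 28 dpa, and Emilin1 at 56.5 and 38.7 CPM. Keratinocyte-like cells held a low level of Fbln1, at 25.3, 28.1, 18.2 and 17.0 CPM in time order. Macrophage- or monocyte-like cells held Emilin1 at 11.3, 10.4, 15.8 and 13.7 CPM in time order.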
